A study of Mus musculus with 7 samples.

Results

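The late steps of cholesterol synthesis turn lanosterol, the first sterol of the pathway, into cholesterol, and 9 genes that encode enzymes of these steps were followed in the kidneys of LBR-null and WT mice. They are Cyp51, Lbr, Tm7sf2, Msmo1, Nsdhl, Hsd17b7, Ebp, Sc5d and Dhcr7, taken by symbol from the 24328 genes of the expression tables. All 9 were found, and all 9 were among the 17283 genes with a mean of at least 5 normalized counts that entered the test. The LBR-null mice 4001, 4002 and 4007 carried the genotype Lbric-J/ic-J, which is homozygous for a loss-of-function allele of Lbr in every cell of the body, and the WT littermate 4009 was Lbr+/+. All 4 mice were C57BL/6J, 4 weeks old and given no treatment that the labels name, and polyadenylated RNA of the pulverized right kidney was sequenced. There were 2 libraries from each of mice 4001, 4007 and 4009 and 1 from mouse 4002, so that the comparison set 3 mice (5 libraries) against 1 mouse (2 libraries). The libraries held 20694016 to 26333284 reads on genes, and the pair from mouse 4001 differed more from each other (mean chi-square per gene 17.7) than the pairs from mice 4007 (3.03) and 4009 (2.69). Mice 4001 and 4007 had reads of both Xist, the transcript of the inactive X (5785 and 9940 normalized counts), and the Y-linked Ddx3y (141 and 44.3) and Eif2s3y (156 and 54.0), while the labels give no sex. For the 9 genes the limma and DESeq2 tests are also given without each LBR-null mouse, while edgeR and the other gene lists were read with all mice only.

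LBR is a protein of the inner nuclear membrane with a nucleoplasmic part that binds the lamina and heterochromatin and a membrane part that is a sterol C14 reductase. TM7SF2 is a second C14 reductase, so the same chemical step is encoded by both Lbr and Tm7sf2. CYP51 acts just before them and removes the C14 methyl group of lanosterol, MSMO1, NSDHL and HSD17B7 then remove the C4 methyl groups, EBP moves a ring double bond, SC5D adds one and DHCR7 removes one. Transcription of most of these genes is driven by SREBP2 when cellular sterol is low, and SREBP factors act on promoters together with NF-Y, which binds CCAAT boxes, and SP1, which binds GC boxes.

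The promoters of both C14 reductases and of the pair of other members with the lowest fitted log2 difference, Cyp51 and Nsdhl, are shown for what they share. They are the 150 bases before the annotated start, from RefSeq on GRCm38.p6, 5′ to 3′ in the direction of the gene. Capitals mark each CCAAT and each GGGCGG on either strand (ATTGG and CCGCCC on the other strand).
Lbr (chr1:181842402-181842551, minus strand): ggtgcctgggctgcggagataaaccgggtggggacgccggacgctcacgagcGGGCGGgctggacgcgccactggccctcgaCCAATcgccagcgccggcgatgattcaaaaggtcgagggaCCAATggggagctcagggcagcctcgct
Tm7sf2 (chr19:6067851-6068000, minus strand): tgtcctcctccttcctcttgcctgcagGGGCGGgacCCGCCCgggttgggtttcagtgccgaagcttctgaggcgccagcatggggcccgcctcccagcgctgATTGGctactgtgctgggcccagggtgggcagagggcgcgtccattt
Cyp51 (chr5:4104698-4104847, minus strand): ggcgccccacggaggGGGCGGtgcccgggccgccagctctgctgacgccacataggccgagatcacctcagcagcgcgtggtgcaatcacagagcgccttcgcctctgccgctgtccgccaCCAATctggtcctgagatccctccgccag
Nsdhl (chrX:72918371-72918520, plus strand): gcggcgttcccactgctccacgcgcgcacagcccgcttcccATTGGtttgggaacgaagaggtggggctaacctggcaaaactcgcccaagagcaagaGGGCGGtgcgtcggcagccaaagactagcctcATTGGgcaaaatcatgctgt

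In the 250 bases before an annotated start, both strands searched, CCAAT was found for 9 of the 9 genes and in 33.8% of the 32851 RefSeq promoter windows. GGGCGG was also found for 9 of the 9 genes, against 32.7% of the windows. Among the 12862 tested genes with a window, 39.2% held CCAAT and 57.4% held GGGCGG in at least 1 window. The CCAAT nearest to the start began 28 bases upstream in Lbr, 47 in Tm7sf2, 29 in Cyp51 and 20 in Nsdhl. The sterol response element letters CACCCCAC and TCACNCCAC, whose matches can overlap, were in none of the 9 genes' windows and in 2.58% and 1.05% of all windows. Of the tested genes with a window, 3.45% and 1.31% held them, so finding none among 9 genes does not set these genes apart. Sterol response elements with other letters were not searched for. A match of letters is a description of the sequence, and binding was not measured.

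The level of 4 of the 9 transcripts in LBR-null kidneys was below 50% of the WT level, and Cyp51 was the lowest of them relative to WT, at 20.3%. The others were Dhcr7 at 44.3%, Nsdhl at 44.3% and Msmo1 at 47.5%. Hsd17b7 stood at 58.4%, Tm7sf2 at 63.8%, Sc5d at 80.6% and Lbr at 94.8% of WT, and Ebp alone had a mean above WT, at 150% of it. In 6 of the 9 genes every LBR-null library lay below both WT libraries, in 1 (Ebp) every LBR-null library lay above them, and Lbr and Sc5d overlapped. Over the 17283 genes tested, all LBR-null libraries lay below both WT libraries in 25.7% and above them in 25.5%. Without mouse 4001, 4002 or 4007 the genes below WT in every library were 7, 6 and 7 of the 9, against 35.1%, 29.6% and 28% of all genes, and with equal library totals 7 against 26.1%.

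**Figure D1:**
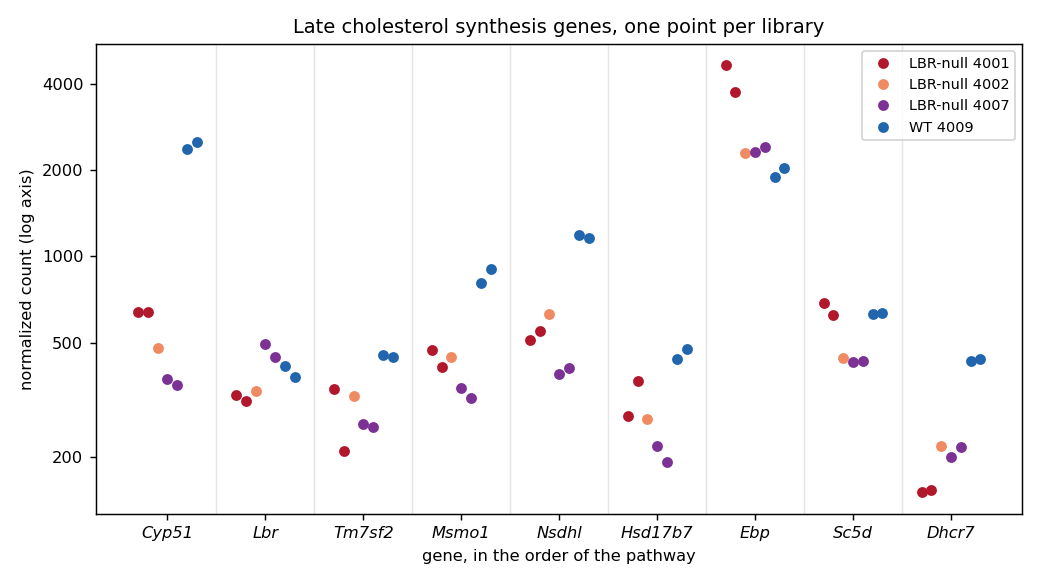
Normalized counts (log axis) of the 9 genes in the order of the pathway, with 1 point per library coloured by mouse. The WT libraries stand at 2372 and 2508 for Cyp51 while the LBR-null libraries reach at most 641, and the Lbr points of both genotypes overlap.

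The test was limma on log2(normalized count + 1) of mouse means, which takes the spread between LBR-null mice to hold for the single WT mouse too. With Benjamini-Hochberg adjustment over all genes it called none of the 9 genes, as it called 0 of 17283 genes (0%) at an adjusted p under 0.05 and a 2-fold difference. At an unadjusted p under 0.05, 4 of the 9 genes were lower in LBR-null mice (Cyp51, Msmo1, Nsdhl and Dhcr7) and 0 were higher, against 8.05% of all genes lower and 10.7% higher. DESeq2 on reads summed per mouse called the same 4 genes lower at an adjusted p under 0.05 and 2-fold, and none higher, against 3.48% of 16612 genes lower and 3.24% higher. edgeR's quasi-likelihood test called 0 of the 9 genes, and 1 gene higher (0.00579%) and 27 lower (0.156%) in all. The DESeq2 calls rested on the mice used, with 4 of the 9 genes called lower without mouse 4001, 2 (Cyp51 and Nsdhl) without mouse 4002 and 1 (Cyp51) without mouse 4007. In those fits DESeq2 called 4.48%, 3.35% and 1.09% of all genes lower. limma itself called 3 of the 9 genes lower without mouse 4001 (Cyp51, Msmo1 and Dhcr7), 1 (Cyp51) without mouse 4002 and 0 without mouse 4007. In those fits limma called 3.83% of 17196 genes, 1.66% of 17274 and 0% of 17118 lower. An exact permutation test of a single gene with 3 mice against 1 cannot go below a one-sided p of 0.25, so none is given.

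Lbr, which is the mutated gene, kept its transcript in the LBR-null libraries. On mm9 it lies on chromosome 1 from 183745447 to 183772532 on the minus strand. Its normalized counts were 330 and 314 (mouse 4001), 340 (4002), 495 and 448 (4007) against 416 and 381 in WT. The libraries of mouse 4007 were above both WT libraries and those of mice 4001 and 4002 below them, so the genotypes overlapped. The LBR-null mean was 378 ± 81.8 (SD, n = 3 mice) against 398 in the WT mouse. The log2 difference was −0.10 ± 0.32 (SE), with a 95% interval from −0.86 to 0.67 and a limma adjusted p of 0.902. Without mouse 4001 the log2 difference was 0.01, on the other side of no difference. Reads over the whole gene do not show the altered protein, so this level does not check the genotype labels.

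Tm7sf2, the gene of the other C14 reductase, had normalized counts of 344 and 210 (mouse 4001), 326 (4002), 261 and 255 (4007) against 454 and 446 in WT. All 5 LBR-null libraries lay below both WT libraries, and the libraries of mouse 4001 stood 48.4% of their mean apart. Across the other mice with a pair of libraries that gap was 2.16% (mouse 4007) and 1.87% (mouse 4009). The LBR-null mean of 287 ± 35.0 (SD, n = 3 mice) stood against 450 in the WT mouse, a log2 difference of −0.65 ± 0.28 (SE, 95% interval −1.34 to 0.03, limma adjusted p = 0.285). No higher level of Tm7sf2 was therefore measured in the kidneys without functional LBR, and the upper end of the interval lies close to no difference. Exons of Tm7sf2 (chromosome 19, 6062821 to 6068373, minus strand) overlap those of 1110014N23Rik on the same strand, so how the counting shared reads between them is uncertain.

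Per kilobase of the longest coding transcript, the ratio of Tm7sf2 to Lbr was 2.48 and 1.59 in the libraries of mouse 4001, 2.27 in mouse 4002, 1.248 and 1.35 in mouse 4007, and 2.59 and 2.78 in the WT mouse. All 5 LBR-null libraries were below both WT libraries, and the first library of mouse 4001 came close to them. Per mouse the ratio was 1.87 ± 0.511 (SD, n = 3) in LBR-null mice and 2.68 in the WT mouse. With the length of all exons of each gene in place of the transcript, the same ratio was 0.878, 0.978 and 0.558 in mice 4001, 4002 and 4007 and 1.15 in the WT mouse, so Tm7sf2 was the higher of the pair in WT under both lengths, and in LBR-null mice under the transcript length alone.

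**Figure D2:**
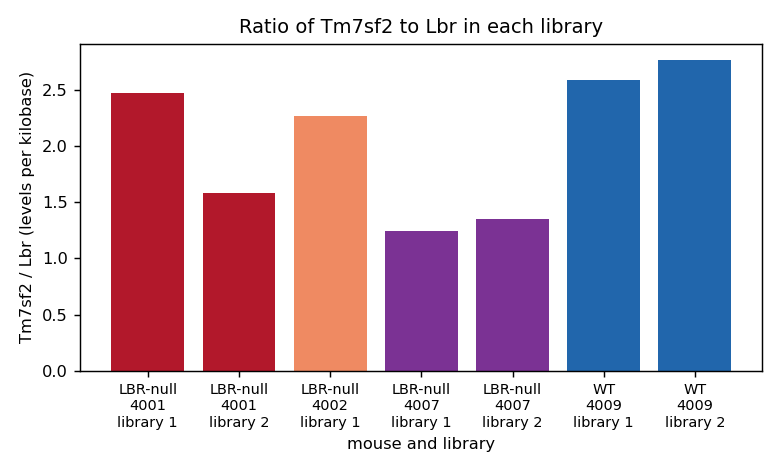
Ratio of Tm7sf2 to Lbr in each of the 7 libraries, from levels per kilobase of the longest coding transcript, with 1 bar per library coloured by mouse. The LBR-null bars range from 1.248 to 2.48 and the WT bars stand at 2.59 and 2.78.

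Cyp51, the C14 demethylase that makes the substrate of both reductases, showed the lowest log2 difference of the 9 genes. Its normalized counts were 641 and 638 (mouse 4001), 481 (4002), 373 and 357 (4007) against 2372 and 2508 in WT. No LBR-null library reached the WT libraries, and mouse 4007 was the lowest. The LBR-null mean was 495 ± 138 (SD, n = 3 mice) and the WT value 2440, which is 4.93 times as much. The log2 difference was −2.34 ± 0.35 (SE), with a 95% interval from −3.18 to −1.50. The adjusted p was 0.0843 in limma, 1.51e-06 in DESeq2 and 0.0629 in edgeR. Cyp51 lies on chromosome 5 from 4081145 to 4104746 on the minus strand.

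The C4 demethylation genes were lower in each LBR-null mouse than in the WT mouse. Msmo1, the C4 methyl oxidase gene (chromosome 8, 67196936 to 67212589, minus strand), had 471 and 411 (mouse 4001), 445 (4002), 347 and 321 (4007) normalized counts against 810 and 904 in WT. Its log2 difference was −1.09 ± 0.29 (SE), with an adjusted p of 0.127 in limma and 0.0293 in DESeq2. The libraries did not overlap, and mouse 4007 was the lowest.

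Nsdhl, the C4 decarboxylase gene on chromosome X (70163896 to 70203853, plus strand), had 511 and 551 (mouse 4001), 629 (4002), 388 and 408 (4007) normalized counts against 1186 and 1156 in WT. Its log2 difference was −1.20 ± 0.32 (SE), with an adjusted p of 0.128 in limma and 0.0306 in DESeq2. Here too mouse 4007 was the lowest and no LBR-null library reached WT.

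Hsd17b7, the gene of the 3-keto reductase of the same complex (chromosome 1, 171879666 to 171899372, minus strand), had 277 and 369 (mouse 4001), 271 (4002), 219 and 192 (4007) normalized counts against 438 and 475 in WT. Its log2 difference was −0.80 ± 0.34 (SE, 95% interval −1.62 to 0.02), with an adjusted p of 0.275 in limma and 0.264 in DESeq2. The libraries did not overlap, but neither test called the difference.

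Ebp, the sterol isomerase gene on chromosome X (7762455 to 7770638, minus strand), was the exception in direction. Its normalized counts were 4627 and 3733 (mouse 4001), 2290 (4002), 2308 and 2394 (4007) against 1890 and 2026 in WT. Mouse 4001 stood apart from the others, and mice 4002 and 4007 lay slightly above WT. The LBR-null mean was 2940 ± 1074 (SD, n = 3 mice) against 1958, a log2 difference of 0.53 ± 0.39 (SE, 95% interval −0.42 to 1.47, limma adjusted p = 0.517), so the difference was within the spread between mice. The X-linked genes Ebp and Nsdhl thus differed from WT in opposite directions. Xist stood at 5785 (mouse 4001), 65.3 (4002) and 9940 (4007) normalized counts against 35.5 in WT. In the same order the Y-linked Ddx3y stood at 141, 1516 and 44.3 against 1284, and Eif2s3y at 156, 2420 and 54.0 against 1477. The LBR-null mice thus differed among themselves in these transcripts. Mice 4001 and 4007 had high Xist and low Y-linked levels, and mouse 4002 and the WT mouse the reverse. These transcripts were therefore not balanced between the genotypes in any test given here. Their part in the level of any of the 9 genes was not tested. Without mouse 4001 the log2 difference of Ebp was 0.24.

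Sc5d, the C5 desaturase gene (chromosome 9, 42062260 to 42072383, minus strand), had 689 and 623 (mouse 4001), 444 (4002), 428 and 432 (4007) normalized counts against 629 and 637 in WT. Mouse 4001 spanned the WT values and the other mice lay below them. The log2 difference was −0.34 ± 0.32 (SE, 95% interval −1.12 to 0.44, limma adjusted p = 0.624). The Sc5d transcript also matched a second place of the genome, on chromosome 6, over 703 bases, so its count is uncertain. No such second place with at least 300 matching bases was found for the other members.

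Dhcr7, the 7-dehydrocholesterol reductase gene (chromosome 7, 151009050 to 151034315, plus strand), had normalized counts of 150 and 154 (mouse 4001), 218 (4002), 199 and 216 (4007) against 432 and 438 in WT. The log2 difference was −1.19 ± 0.33 (SE), with an adjusted p of 0.138 in limma and 0.0364 in DESeq2. Unlike Cyp51, Msmo1 and Nsdhl, which were lowest in mouse 4007, Dhcr7 was lowest in mouse 4001.

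**Figure D3:**
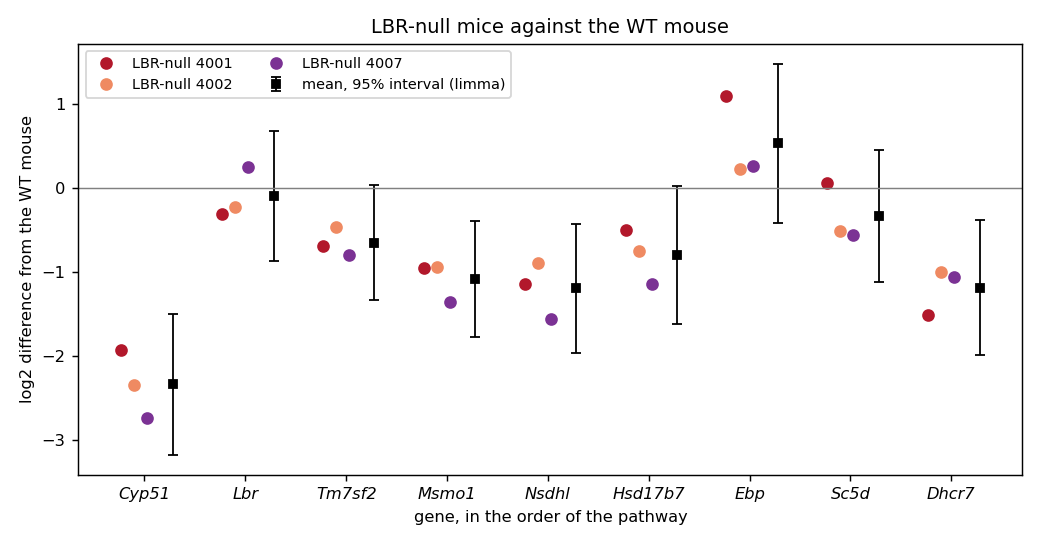
Log2 difference of each LBR-null mouse from the WT mouse for the 9 genes in the order of the pathway, with black squares for the limma mean and bars for its 95% interval. All 3 mice lie below WT for Cyp51, Tm7sf2, Msmo1, Nsdhl, Hsd17b7 and Dhcr7, and above it for Ebp.

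Mouse 4007 was the lowest of the 3 mice in 6 of the 9 genes (Tm7sf2, Cyp51, Msmo1, Nsdhl, Hsd17b7 and Sc5d) and the highest in Lbr. Mouse 4001 was the highest in 4 genes (Cyp51, Hsd17b7, Ebp and Sc5d) and the lowest in Lbr and Dhcr7. Mouse 4002 was also the highest in 4 genes (Tm7sf2, Msmo1, Nsdhl and Dhcr7) and the lowest in Ebp. Of the 9 genes, 7 were below WT in mouse 4001, 8 in 4002 and 7 in 4007. By mouse, the median log2 difference of the 9 genes was −0.70 (4001), −0.75 (4002) and −1.06 (4007). Over the mice together it was −0.80, where the median of all genes tested was 0.01.

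Levels of different genes were compared per kilobase of the longest coding transcript. In the WT mouse the order from high to low was Ebp at 1123 normalized counts per kilobase, Cyp51 at 621, Nsdhl at 540, Msmo1 at 419, Tm7sf2 at 301, Sc5d at 281, Dhcr7 at 154, Lbr at 112 and Hsd17b7 at 99.0. No neighbours in this order overlapped between the pair of WT libraries, which come from 1 mouse. In LBR-null mice the order was Ebp at 1687 ± 616 normalized counts per kilobase (SD, n = 3 mice), Nsdhl at 240 ± 53.3, Sc5d at 227 ± 56.3, Msmo1 at 199 ± 30.7, Tm7sf2 at 192 ± 23.3, Cyp51 at 126 ± 35.0, Lbr at 106 ± 23.0, Dhcr7 at 68.3 ± 12.6 and Hsd17b7 at 57.8 ± 12.7. There the ranges over the 5 libraries separated Ebp from Nsdhl and Lbr from Dhcr7, and each other pair of neighbours overlapped. Cyp51 stood in the second place in WT and in the sixth in LBR-null mice, and in the second and the fourth with the length of all exons. Cyp51 made up 17.0% of the summed level per kilobase of the 9 genes in WT and 4.34% in LBR-null mice, and Ebp 30.8% and 58.1%. With the length of all exons the WT level per kilobase of Tm7sf2 was 129 and that of Msmo1 139. With that length 3 of the 9 genes took another place in the WT order and 8 of the 9 in the LBR-null order, where all but Ebp moved.

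**Figure D4:**
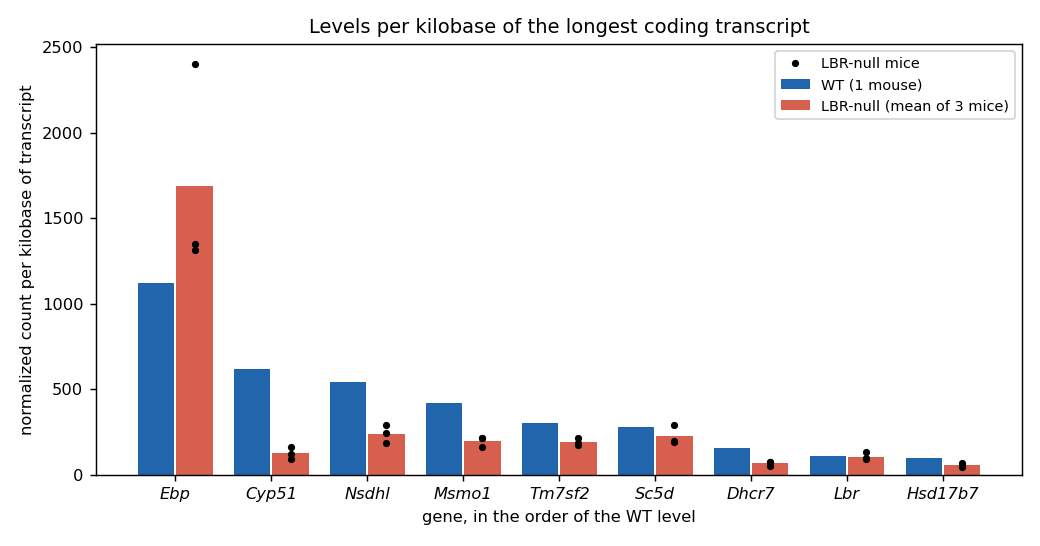
Normalized counts per kilobase of the longest coding transcript, from the WT mouse (blue bars) and the mean of the LBR-null mice (red bars, with 1 black point per mouse), in the order of the WT level. Cyp51 is the second bar in WT, at 621, and lies near Lbr in LBR-null mice, at 126 against 106.

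Other genes of sterol metabolism were read from the same fit, and limma called none of them. Among 6 further genes that act after lanosterol or serve its enzymes, 5 had a negative log2 difference and the median was −0.39. Erg28, listed under its older symbol 0610007P14Rik and known as a scaffold of the C4 demethylation enzymes, had a log2 difference of −0.45 ± 0.26 (SE). Por, the reductase that gives electrons to CYP51, was the lowest of this list at −0.76 ± 0.30, and Pgrmc1, a haem-binding partner of P450 enzymes, the highest at 0.22 ± 0.29. At an unadjusted p under 0.05, 1 of the 6 was lower (Por) and 0 were higher, against 8.05% and 10.7% of all genes. DESeq2 called 0 of the 6, against 3.48% of all genes lower and 3.24% higher.

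Among 10 genes from acetyl-CoA to lanosterol, with Ggps1 of a side branch among them, the median log2 difference was −0.67. There were 7 negative and 3 positive values, and Ggps1 was positive. At an unadjusted p under 0.05, 4 were lower (Acat2, Mvd, Fdps and Sqle, with Acat2, Mvd and Fdps named after their values were seen) and 0 higher. The shares of all genes tested were 8.05% lower and 10.7% higher. DESeq2 called 1 of the 10 lower, Mvd, and 0 higher, against 3.48% and 3.24% of all genes. Sqle, the squalene epoxidase gene, had 465 and 509 (mouse 4001), 402 (4002), 321 and 309 (4007) normalized counts against 809 and 827 in WT, a log2 difference of −1.05 ± 0.32 (SE). Lss, which makes lanosterol, differed by −0.41 ± 0.28. Idi1, the isopentenyl diphosphate isomerase gene, had the lowest log2 difference, −1.59 ± 0.84, with mouse 4001 near WT and the other mice below it. Fdft1, the squalene synthase gene, had the highest, 0.86 ± 0.45, and its exons overlap those of Ctsb on the other strand.

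Among 9 genes of SREBP control and cholesterol uptake the median was −0.01, with 5 negative and 4 positive values. At an unadjusted p under 0.05, 1 of the 9 was lower, Srebf2, and 0 higher, which is near the 8.05% of all genes lower (10.7% were higher). DESeq2 called 0 of the 9, against 3.48% of all genes lower and 3.24% higher. Srebf2, which encodes SREBP2, had 1070 and 1345 (mouse 4001), 1011 (4002), 924 and 985 (4007) normalized counts against 1956 and 1930 in WT. Its log2 difference was the lowest of the list, −0.88 ± 0.25 (SE), with an adjusted p of 0.141 in limma and 0.0648 in DESeq2. Insig1, which encodes a sterol-sensing retention protein of the SREBP pathway, had the highest log2 difference, 0.99 ± 0.50, and all its LBR-null libraries lay above WT.

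Among 11 genes of LXR, the oxysterol-sensing receptor, its targets and cholesterol efflux the median was 0.33, with 8 positive and 3 negative values. At an unadjusted p under 0.05, 4 were higher (Abca1, Abcg1, Mylip and Apoe, with Abcg1 and Mylip named after their values were seen) and 1, Nr1h3, was lower. Over all genes tested 10.7% were higher and 8.05% lower at that limit. DESeq2 called 4 of the 11 higher and 0 lower, against 3.24% and 3.48% of all genes. Abca1, the cholesterol efflux transporter gene, had 2817 and 3511 (mouse 4001), 2520 (4002), 3679 and 3496 (4007) normalized counts against 926 and 1008 in WT, a log2 difference of 1.66 ± 0.28 (SE) with an adjusted p of 0.0906 in limma and 8.50e-05 in DESeq2. Apoe, an apolipoprotein, had the highest log2 difference, 1.92 ± 0.59, and Nr1h3, which encodes LXR alpha, the lowest, −1.04 ± 0.29.

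**Figure D5:**
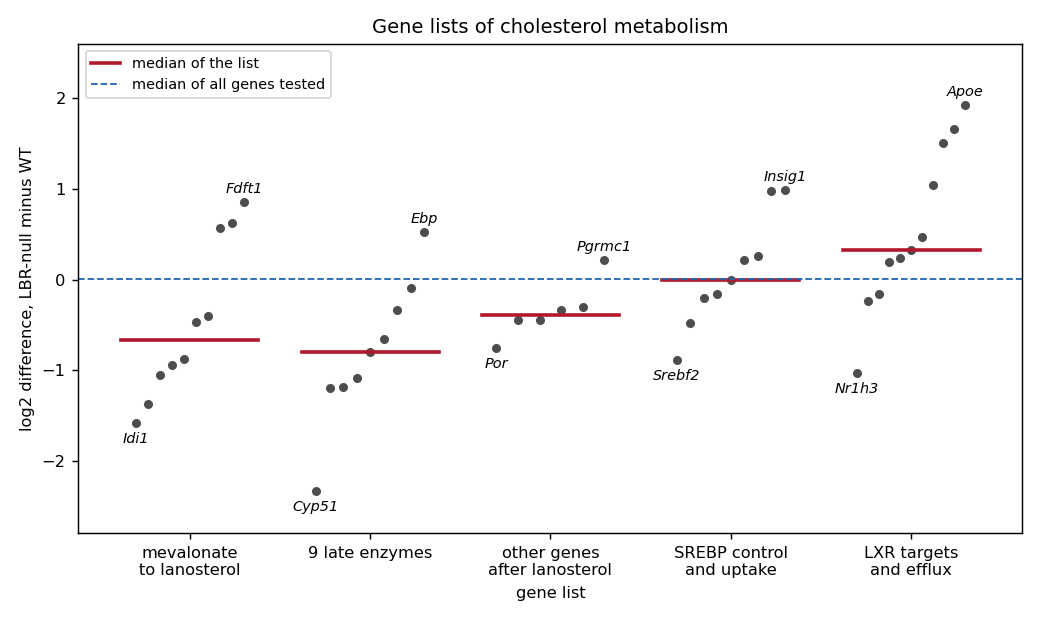
Log2 difference between LBR-null and WT mice for each tested gene of 5 lists, with a red line at the median of each list, a dashed line at the median of all genes tested, and the lowest and highest gene of each list named. The medians run from −0.80 for the 9 late enzymes to 0.33 for the LXR list.

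Genes with a pattern most like that of a member over the 7 libraries were sought among 11832 genes with a mean of at least 100, by the root mean square difference of centred log2 values. For Cyp51 they were Fn1 (0.0797), Paqr9 (0.0835) and Tmem27 (0.0966), against 1.10 for the spread of Cyp51 itself on this scale. For Tm7sf2 they were Dnajc25 (0.0601), Gng11 (0.0616) and Hypk (0.0721), against a spread of 0.387. For Lbr they were Gimap5 (0.0673), Ylpm1 (0.0700) and Dennd4b (0.0738), against 0.227. These are descriptions of 7 libraries from 4 mice, and none of the named genes belongs to the sterol lists. The measure also compares the size of a difference. Apart from Cyp51 (−2.34) the lowest log2 difference in the sterol lists was −1.59 (Idi1). For Cyp51 the absence of listed genes was thus set by the measure.

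Marker lists of kidney and other cell types were summed in the same libraries. The 7 proximal tubule markers summed to 111545 to 267597 normalized counts in LBR-null mice and 479847 in the WT mouse. In 6 of the 7 all LBR-null libraries lay below WT, against 25.7% of all genes tested. Kap made up most of the proximal tubule sum in WT (357146), and Aqp1 was the marker in the other direction, at 27527 in LBR-null mice and 17029 in WT. Among LBR-null mice Kap was highest in mouse 4002 (205800), which had low Xist, and lower in mice 4001 (128162) and 4007 (59162). Whether Kap follows the Xist and Y-linked transcripts was not tested. The 6 distal and collecting duct markers summed to 98070 to 187356 and 117668, and the 4 podocyte markers to 7439 to 14851 and 17742, in the same order. Most of the podocyte sum was Podxl (11458 in WT), and Wt1 was higher in mice 4002 (1329) and 4007 (1408) than in WT (765). The 7 proliferation markers summed to 246 to 416 against 2367, the 7 adipocyte markers to 55.9 to 257 against 1131 and the 3 erythroid markers to 595 to 620 against 2172. The 8 neutrophil markers summed to 382 to 2419 against 80.2 and the 7 liver markers to 15155 to 34352 against 9493. In 4 of the 7 liver markers all LBR-null libraries lay above WT, against 25.5% of all genes tested. The other 3 (Alb, Ttr and Cyp2e1) overlapped WT. The 9 adrenal cortex markers summed to 342 to 616 against 522. In WT most of that sum was Akr1b7 (387), the 1 tested adrenal marker with all LBR-null libraries below WT. In 4 of the 5 tested adrenal markers (Cyp21a1, Star, Mc2r and Hsd3b1) all LBR-null libraries lay above WT, against 25.5% of all genes tested. The median log2 difference of the 5 was 1.03, and DESeq2 called 1, Hsd3b1, higher, against 3.24% of all genes. Except for Star these markers were near the floor, with at most 23 (Cyp21a1), 34 (Mc2r) and 23 (Hsd3b1) reads in any library. Hsd3b1 had 0 and 0.905 normalized counts in the WT libraries. Cyp11b1, Cyp11b2 and Nr5a1, which are among the defining genes of the adrenal cortex, had at most 3 reads in any library. Cyp11a1 reached 8.20 normalized counts in a library of mouse 4007. The part of these differences in the levels of the 9 genes was not tested, and in a bulk kidney sample fewer cells of a type and less RNA per cell cannot be told apart.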

How the data were processed

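RNA-seq of mouse kidney was analysed for 3 LBR-null mice and 1 WT littermate (7 libraries, polyA selection, 150-bp paired ends). Alignment by the authors used STAR 2.6.0 and mm9. The deposited signal of a gene symbol is its read count in a library over that library's DESeq2 1.25.1 size factor. The counting program, its annotation and its use of strand are not given in the sources used here. Reads were recovered by dividing each value by the worth of 1 read (100% of values whole within 0.01 read). No member was listed at 0. Libraries were averaged within a mouse. That both libraries of a mouse differ beyond sampling noise was checked by chi-square per gene.

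Mouse means were tested in R 4.3.3 with limma 3.58.1, moderated with a mean trend, on log2(normalized count + 1). Genes needed a mean of 5 or more, p-values were adjusted by Benjamini-Hochberg over all of them, and the limits were 0.05 and 2-fold, those that the study set for DESeq2. edgeR 4.0.16 and DESeq2 1.42.0 on summed reads were alternatives. The scripts were tested on simulated data. p-values measure the spread between these mice only. DESeq2 left 671 genes without an adjusted p. Transcript lengths and positions are of GENCODE models on mm9, second matches were found with minimap2 2.31-r1302, and promoters are RefSeq's. Some genes of the sterol lists are not reported here and were left out of the lists whatever their values. The members and lists were chosen with earlier results of these data known. Named were the members, set genes of sterol metabolism, the highest and lowest gene of each sterol list, and the 3 genes most like Lbr, Tm7sf2 and the member with the largest log2 difference.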

Additional observations from a re-analysis of the deposited data

How the results depend on the processing

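Over 14 alternatives, 113 of 126 values of the members' log2 differences kept their direction and side of the threshold, 12 passed it, and 1 reversed: Lbr without mouse 4001, at 0.0067 (−0.27 without mouse 4007). The median of the members stayed within its spread between mice under every alternative, from −0.95 to −0.62 without 1 mouse. limma called 1 gene higher with a minimum mean of 50, and 1 with the second library of each mouse. With the 7 libraries and the mouse as a random effect it called 346 genes higher and 501 lower, among them 4 members (Cyp51, Msmo1, Nsdhl and Dhcr7). That fit takes the libraries of a mouse as partly separate observations, the pair from the lone WT mouse included. edgeR called 1 higher and 27 lower, and DESeq2 539 higher and 578 lower, with the same 4 members. Without 1 mouse, limma called 0 to 505 genes higher, 0 to 658 lower and 0 to 3 members lower, with most calls without mouse 4001 (Cyp51, Msmo1 and Dhcr7), 338 higher and 287 lower with Cyp51 without mouse 4002, and none without mouse 4007. DESeq2 called 1 to 4 members. The cause was not tested. With the length of all exons the mean Tm7sf2 to Lbr ratio of LBR-null mice was 0.805 in place of 1.87. Leaving out mouse 4001 or mouse 4007, or scaling to equal library totals, put 7 members below WT in every library instead of 6 (Sc5d or, without mouse 4007, Lbr was the added one), where the share of all genes was 35.1%, 28% and 26.1% in place of 25.7%. These settings for that count, the leave-one-out fits of DESeq2 and of the ratio, and the exon length were chosen after seeing the data. Depth (at least 131 reads per member and library) is not what limits the comparison as far as counting error goes, while no spread between WT mice could be measured. No paired analysis was possible because the replicate numbers count libraries within a genotype and pair no LBR-null mouse with the WT mouse.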
